A study of Mus musculus with 13 samples.

Results

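The genes described here are 34 mouse genes of mitosis and proliferation, measured in melanomas with 42 probe sets of the 22690 on the arrays. They were chosen as a list of probe sets with a gene name for each, and all 42 were found in the deposited table. No filter on low values was applied, so every member was tested. By role, the list holds 2 proliferation markers, 5 genes of cyclins, CDK1 and its partner, 2 transcription factors, 7 mitotic kinases and their partners, 6 genes of the spindle checkpoint and of ubiquitin ligases of mitosis, 3 of the kinetochore and centromere, 5 of the spindle and its motors and 4 of cytokinesis.

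Each of 13 cutaneous melanomas was hybridized to its own Affymetrix mouse expression array. The tumors were 6 ARF-deficient melanomas (5 ARF heterozygous, 1 ARF null) and 7 INK4a-deficient melanomas (3 Ink4a heterozygous, 4 Ink4a null). ARF and INK4a are both encoded by Cdkn2a, and the comparison asks how melanomas deficient in one differ from those deficient in the other. All mice carried an HGF/SF transgene driven by a metallothionein promoter, were about 90% FVB/N and 10% C57BL/6, and received 1 dose of UV at 3.5 days of age, so no tumor arose without the transgene or UV, and no tumor of a mouse with wild-type Cdkn2a was among the arrays. The ARF null group is a single tumor. For the 6 ARF-deficient tumors the sample titles say Ink4a and the genotype field says ARF. Groups were taken from the genotype field, and every direction below rests on it. Cdkn2a itself and markers of melanocytes or of other cells of the skin are not analysed here, because apart from the 42 members the probe sets were not paired with genes, so neither genotype nor tissue could be checked on the arrays. The labels do not say which mouse a tumor came from, so p-values measure only the spread between these tumors.

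All values are on the log2 scale, relative to the median of the 13 arrays for the same probe set, so 0 is the middle tumor and a value of -1 is a 2-fold lower signal. They carry no expression level, and values of different genes can be compared only as differences between tumors. The array medians over all probe sets lay between -0.05 and 0.05. The material was bulk tumor, in which fewer dividing cells and less RNA of these genes per cell cannot be told apart.

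Many genes of mitosis are transcribed late in the cell cycle, in G2 and M phase, and are low in cells that have left the cycle. Their promoters often carry a CHR element (cell cycle genes homology region), which is bound by the MuvB complex, and CCAAT boxes, which are bound by NF-Y. In resting cells MuvB is part of the repressing DREAM complex, and in dividing cells it works with B-MYB (Mybl2) and FOXM1. The proteins encoded by Cdkn2a act upstream: INK4a inhibits CDK4 and CDK6 and so keeps RB active, and ARF binds MDM2 and so stabilizes p53. In tumors, transcripts of these genes are widely used as a measure of how many cells are dividing.

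To show the sequences shared by these genes, promoters were read from RefSeq (GRCm38.p6) over 250 bases before to 50 bases after the annotated start. A window was found for 29 of the 34 genes. Ccna2, Aurkb, Kif20a, Pbk and Foxm1 had no entry. The stretches below run 5′ to 3′ along the gene from 100 bases before to 40 bases after the start. Capitals mark TTTGAA, the only form of the CHR element searched, and the CCAAT box, also where the stretch holds their reverse complement. The first 4 are given because they hold both and Ccnb1 because it holds CCAAT boxes but no TTTGAA. Birc5 and Mybl2 are given because they hold neither. Other forms of the CHR element were not searched, so a stretch without TTTGAA is not shown to lack a CHR element.
Cdk1, chr10:69352873-69353012, minus strand: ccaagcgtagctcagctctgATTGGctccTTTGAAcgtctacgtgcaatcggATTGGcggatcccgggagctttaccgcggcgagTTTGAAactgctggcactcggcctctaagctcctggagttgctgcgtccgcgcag
Cdc20, chr4:118437304-118437443, minus strand: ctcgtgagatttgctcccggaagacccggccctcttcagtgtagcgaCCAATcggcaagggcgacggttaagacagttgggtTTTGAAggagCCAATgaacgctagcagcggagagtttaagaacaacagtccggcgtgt
Plk1, chr7:122159335-122159474, plus strand: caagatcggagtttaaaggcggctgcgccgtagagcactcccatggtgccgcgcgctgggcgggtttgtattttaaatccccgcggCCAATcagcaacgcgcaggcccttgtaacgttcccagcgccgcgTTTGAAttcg
Kif22, chr7:127042381-127042520, minus strand: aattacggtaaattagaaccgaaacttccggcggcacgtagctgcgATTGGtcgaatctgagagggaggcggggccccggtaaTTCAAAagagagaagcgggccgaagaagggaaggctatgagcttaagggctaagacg
Ccnb1, chr13:100786447-100786586, minus strand: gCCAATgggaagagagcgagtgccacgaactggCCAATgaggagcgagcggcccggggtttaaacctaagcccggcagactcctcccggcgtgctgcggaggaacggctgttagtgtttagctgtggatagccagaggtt
Birc5, chr11:117849137-117849276, plus strand: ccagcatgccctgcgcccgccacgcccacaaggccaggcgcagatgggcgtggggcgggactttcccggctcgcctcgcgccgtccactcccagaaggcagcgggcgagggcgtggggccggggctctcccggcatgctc
Mybl2, chr2:163054535-163054674, plus strand: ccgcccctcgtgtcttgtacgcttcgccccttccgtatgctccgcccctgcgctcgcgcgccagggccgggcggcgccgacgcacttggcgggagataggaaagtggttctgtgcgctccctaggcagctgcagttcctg

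On either strand, TTTGAA was found in the windows of 20 of the 29 genes (69.0%), against 20.2% of the windows of 27025 genes. A CCAAT box was found in 22 (75.9%) against 41.1%, and 2 or more in 17 (58.6%) against 13.3%. Adjoining matches of the searched sequences can share a base. Both sequences were present in 19 of the 29 windows (65.5%), against 7.97% of all. Most genes with TTTGAA had it near the start: 19 of the 29 genes had TTTGAA from 60 bases before to 50 bases after the start, against 6.55% of all genes. Among these are Cdk1, Cdc20, Plk1 and Kif22, printed above. Mki67 and Top2a each had 2 copies of TTTGAA in the window, and Top2a and Ube2c had 6 CCAAT boxes each. The E2F site, searched as TTTGGCGC or TTTCGCGC on both strands, was found in Cdk1 alone among the members and in 0.929% of all genes. Birc5, Mybl2, Melk, Mad2l1, Nusap1 and Tacc3 had neither TTTGAA nor CCAAT in the window. A match describes letters only, and a window without a match says nothing about the factor. The 20 genes with TTTGAA had a median distance between the lowest and the highest tumor of 2.57 on the log2 scale, and the 9 without it 2.21. These are descriptions with no test, and the individual distances overlapped, from 1.23 to 3.86 and from 0.93 to 3.35.

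**Figure D1:**
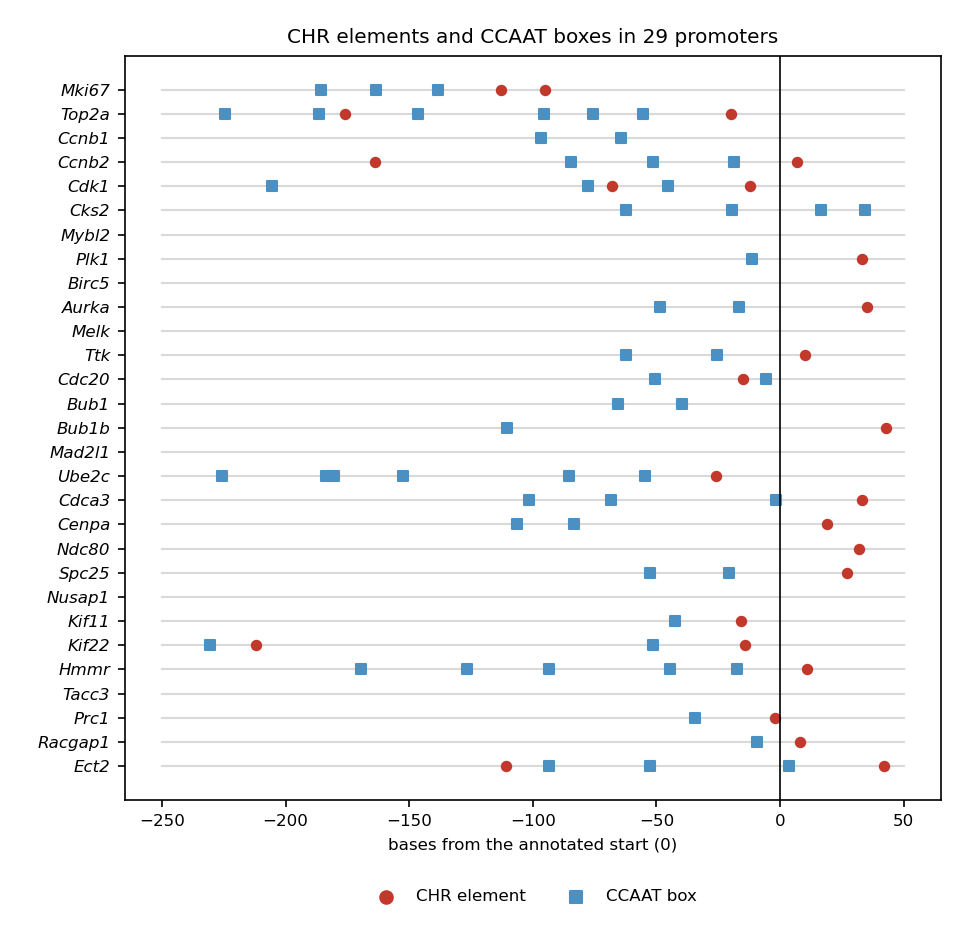
Position of each TTTGAA match (red circles, labelled CHR element) and CCAAT match (blue squares) in the promoters of 29 mitosis genes, ordered by role. Positions are in bases from the annotated start. In 19 of the 29 genes a TTTGAA match lies within 60 bases before to 50 bases after the start.

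The 34 genes varied together across the tumors. In the ARF-deficient group tumor 14 was lowest and tumor 13 the next lowest, both ARF heterozygous, and together they were the 2 lowest of the 13 tumors for 38 of 42 probe sets (90.5%), against 246 of 22626 probe sets on the array (1.09%). Tumor 14 was the lowest for 39 of the 42. All 34 genes were below 0 in both. All 34 genes were above 0 in Ink4a heterozygous tumor 5.2, 33 in ARF null tumor 10, and 32 in Ink4a null tumor 1.2 and in Ink4a heterozygous tumor 15.

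**Figure D2:**
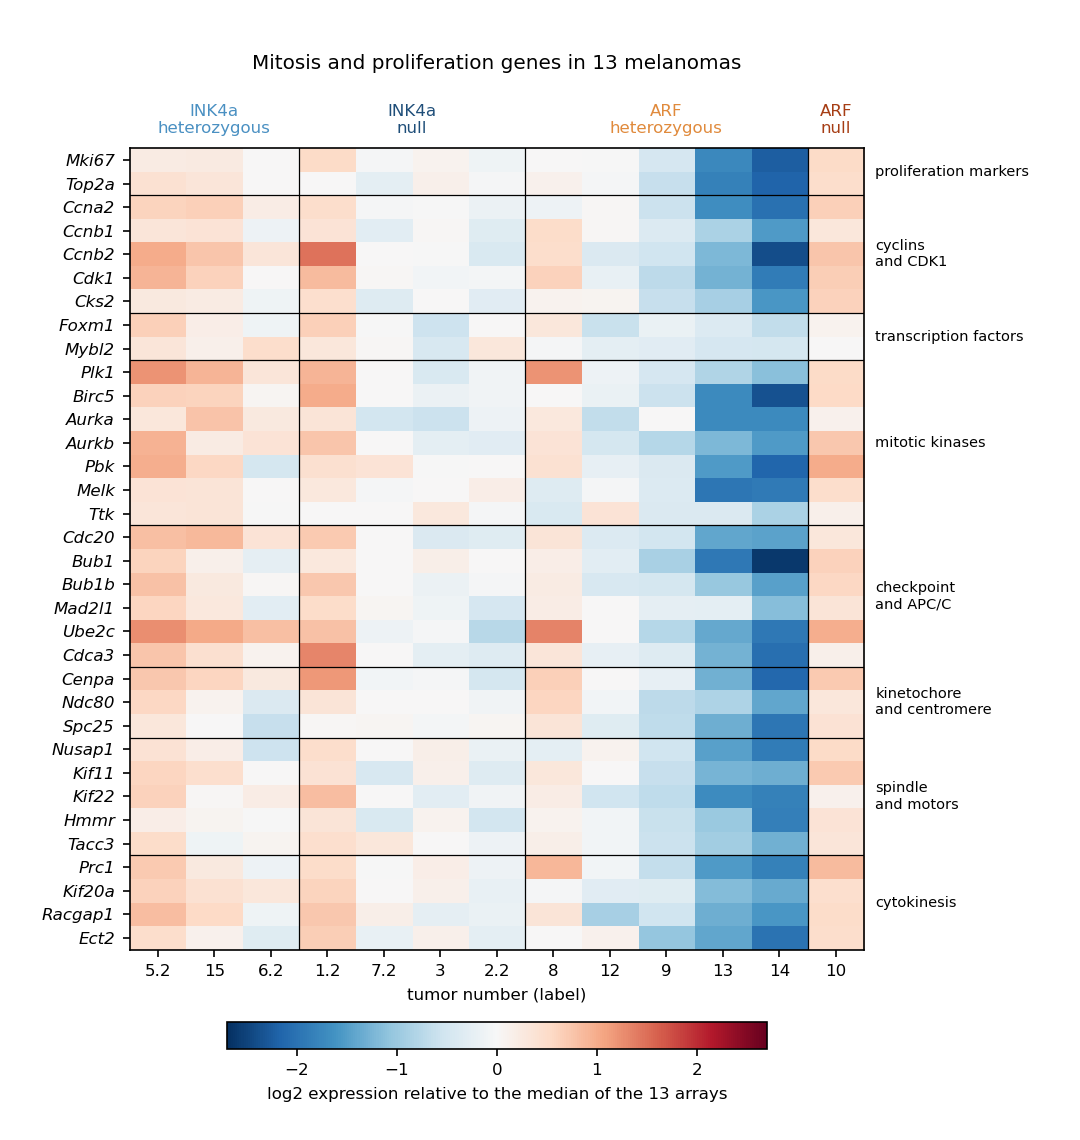
Log2 expression relative to the median of the 13 arrays (color) of 34 genes, in rows by role, in each tumor, in columns by genotype, with probe sets of 1 gene averaged. Tumors 13 and 14 are blue for all 34 genes, and tumors 5.2, 1.2 and 10 are red or white for all of them.

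The mean over the 34 genes, called the mitosis mean here, gives each tumor 1 value. It was 0.61 in tumor 5.2, 0.38 in tumor 15 and 0.02 in tumor 6.2, the 3 Ink4a heterozygous tumors. In the 4 Ink4a null tumors it was 0.58 in tumor 1.2, -0.05 in tumor 7.2, -0.07 in tumor 3 and -0.18 in tumor 2.2. In the 5 ARF heterozygous tumors it was 0.28 in tumor 8, -0.18 in tumor 12, -0.52 in tumor 9, -1.24 in tumor 13 and -1.69 in tumor 14. ARF null tumor 10 had 0.48. The genotype groups overlap, since tumors 8 and 10 lie among the INK4a-deficient tumors, while the 3 lowest tumors are all ARF heterozygous. Tumor 12 was level with tumor 2.2, the lowest INK4a-deficient tumor, and above it after quantile normalization (-0.11 against -0.23). The group means were -0.48 ± 0.85 in ARF-deficient (SD, n = 6) and 0.18 ± 0.33 in INK4a-deficient tumors (SD, n = 7). This direction, lower in ARF-deficient tumors, is opposite to the one the study gives for gene groups of proliferation after ARF loss. The measures are not alike, however. The study's statement comes from a gene ontology analysis that also covers DNA synthesis and repair, and its methods name an expression filter. The mitosis mean covers 34 listed genes, without a filter or a test. By zygosity the means were -0.67 ± 0.80 in ARF heterozygous (SD, n = 5), 0.34 ± 0.30 in Ink4a heterozygous (SD, n = 3) and 0.07 ± 0.34 in Ink4a null tumors (SD, n = 4).

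From tumor 14 to tumor 5.2 the mitosis mean spanned 2.31, a 4.94-fold difference. This span depended on the scaling of the arrays. After quantile normalization the mean ran from -2.63 in tumor 14 to 0.68 in tumor 10, a span of 3.31 or 9.94-fold. In the deposited values, the gap of 0.72 between tumor 13 and tumor 9 was the only gap between neighbors above the pooled SD within the genotype groups, 0.62. After quantile normalization the gap between tumor 14 and tumor 13 was 1.38 and that between tumor 13 and tumor 9 was 0.64. Each tumor was measured on 1 array, so a tumor's own error is not known.

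RNA quality was read from the beta-actin control probe sets, as the 3′ signal minus the 5′ signal, which is higher where RNA is more degraded. This ratio is relative to the other arrays. It was 1.49 in tumor 13, 1.09 in tumor 9, 0.94 in tumor 7.2 and 0.81 in tumor 12, the 4 highest, of which 3 are ARF heterozygous. In tumor 14, which had the lowest mitosis mean, it was -0.04. The 4 tumors 5.2, 15, 6.2 and 1.2 lay between -0.54 and -0.37, and their mitosis means were between 0.02 and 0.61. The next lowest ratios were those of ARF-deficient tumors 8 (-0.36) and 10 (-0.14), with mitosis means of 0.28 and 0.48. The mean ratio was 0.52 higher in ARF-deficient than in INK4a-deficient tumors, a difference within the spread between tumors (two-sided exact permutation test over 1716 assignments, p = 0.177). The same ratio of the Gapdh control probe sets was 1.41 in tumor 13, 0.38 in tumor 12 and 0.23 in tumor 9. It was -0.07 in tumor 7.2, unlike its beta-actin ratio, and -0.49 in tumor 14. Its mean was 0.47 higher in ARF-deficient tumors, which was not tested.

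**Figure D3:**
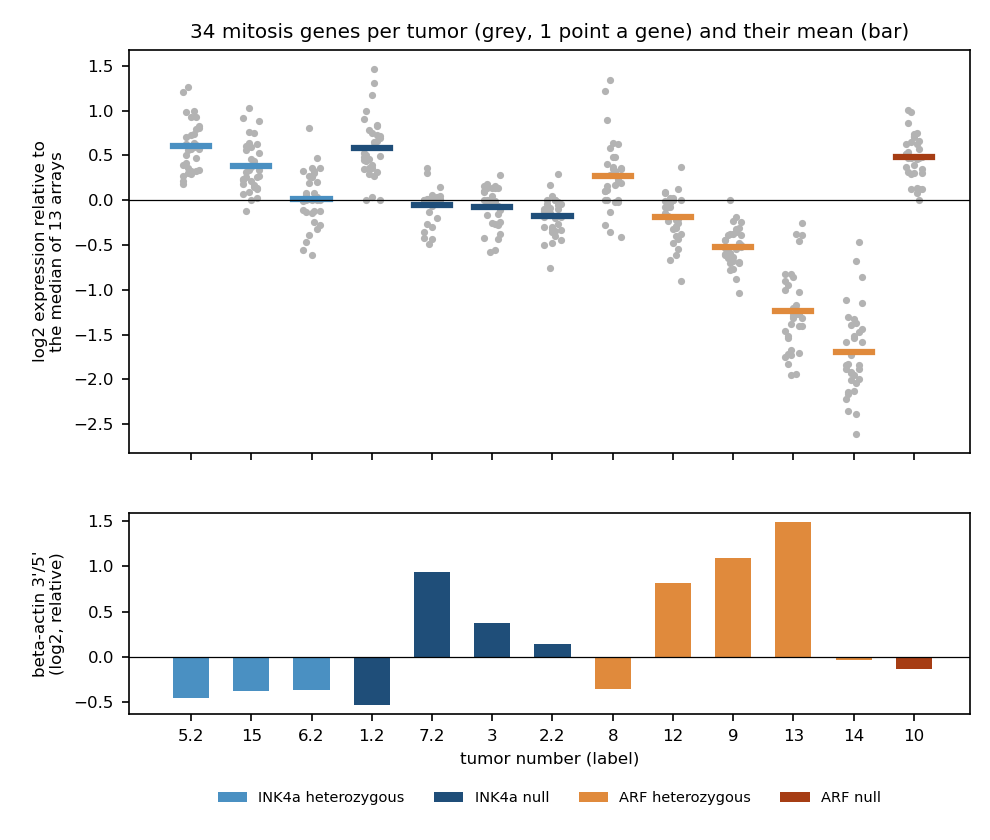
Upper panel, log2 expression of the 34 genes (grey points, 1 a gene) and their mean (colored bar) in each tumor, relative to the median of the 13 arrays. Lower panel, the beta-actin 3′/5′ ratio (log2) of the same array. Tumors 13 and 14 have means of -1.24 and -1.69, and their ratios are 1.49 and -0.04.

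Correlations describe how closely the genes followed each other. Over the 13 arrays, which all pairs share, the 561 pairs of genes had a median Pearson r of 0.898, from 0.279 (Foxm1 with Ttk) to 0.982 (Ccnb2 with Cenpa), and 460 pairs (82.0%) had an r over 0.8. Over all pairs of probe sets on the array the median was 0.0293, and 0.554% were over 0.8. Within the 6 ARF-deficient tumors alone the median r of the gene pairs was 0.945, and within the 7 INK4a-deficient tumors alone 0.716, so the genes varied together within each genotype. The members also varied more between tumors than most probe sets. Their median SD over the 13 tumors was 0.78, against 0.27 over all probe sets, and 41 of 42 exceeded the latter. Outside the list, 49 of 22584 probe sets had an r over 0.9 with the mitosis mean, and 1 had an r under -0.9. The nearest reached an r of 0.989 and the next 0.984. Their genes are not named here.

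Between genotypes, ARF-deficient minus INK4a-deficient, no member passed an adjusted p of 0.05 in limma, and neither did any of the 22626 probe sets tested (0%). All 42 members had a negative difference, against 47.6% of all probe sets. The median difference was -0.69 on the log2 scale, against 0.01 over all probe sets. The smallest adjusted p of a member was 0.891. At an unadjusted p under 0.05, 13 of 42 members were lower in ARF-deficient tumors, against 609 of all probe sets (2.69%), and none was higher. As the members follow each other so closely, the 13 are not separate pieces of evidence. The methods of the study name a Mann-Whitney test with an expression filter. An exact Mann-Whitney test, run here without a filter, gave 3 members at an unadjusted p under 0.05 and 0 after adjustment. Over all probe sets it gave 782 (3.46%) and 0. No member separated the 2 genotypes fully, as 11 probe sets on the array did with all ARF-deficient tumors lower (0.0486%).

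The count of 13 and the median changed when single tumors were left out and when the beta-actin ratio was a covariate. That ratio was 0.52 higher in ARF-deficient tumors, so the fit cannot fully tell it apart from genotype. When the beta-actin ratio entered the fit, the median difference was -0.41 and 1 member had an unadjusted p under 0.05. Without tumor 14 the median was -0.43 with 3 such members, and without tumor 13 it was -0.52 with 2. The count was 31 without tumor 10 and 27 without tumor 8, the ARF-deficient tumors with the highest mitosis means. It was 3 without tumor 5.2, 4 without tumor 15, 4 without tumor 1.2 and 6 without tumor 9. Adjusted for all probe sets, the count stayed 0 in each of these fits.

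**Figure D4:**
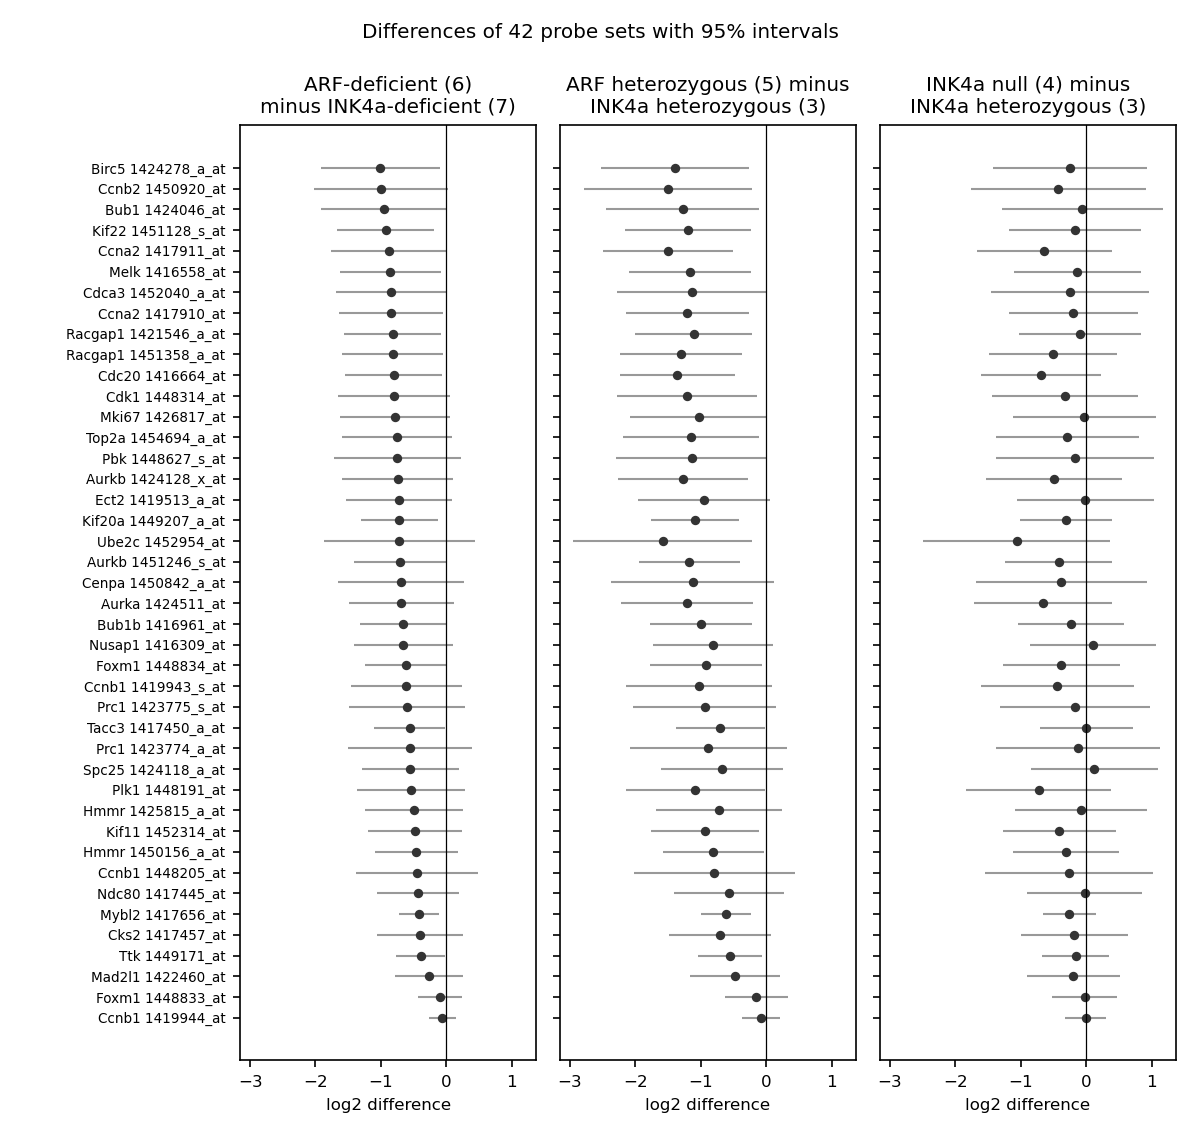
Log2 difference (points) with 95% intervals from limma (lines) of each of the 42 probe sets in 3 comparisons, ordered by the first. All points lie left of 0 in the first 2 panels, with medians of -0.69 and -1.06, and 39 of 42 do so in the third, where each interval includes 0.

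The proliferation markers are Mki67, which encodes the Ki-67 antigen of cycling cells, and Top2a, the topoisomerase that untangles replicated chromosomes. Mki67 ranged in ARF-deficient tumors from -2.22 over a median of -0.23 to 0.51, and in INK4a-deficient tumors from -0.12 over a median of 0.11 to 0.52. Top2a ranged from -2.17 over a median of -0.33 to 0.48 in ARF-deficient and from -0.27 over a median of 0.00 to 0.42 in INK4a-deficient tumors. For both genes the INK4a-deficient tumors lie within a narrow band, and only tumors 9, 13 and 14 fall below it. Tumors 13 and 14 had Mki67 values of -1.75 and -2.22 and Top2a values of -1.83 and -2.17. The differences between genotypes were -0.78 ± 0.39 (SE) for Mki67 and -0.76 ± 0.39 (SE) for Top2a, both with an adjusted p of 0.891 in limma.

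Cyclin B1 (Ccnb1) and cyclin A2 (Ccna2) activate CDK1 (Cdk1), the kinase that starts mitosis. Cdk1 ranged from -1.89 over a median of -0.45 to 0.66 in ARF-deficient tumors and from -0.06 over a median of 0.03 to 0.92 in INK4a-deficient tumors. It was the member whose values followed the mean of the other genes most closely (r = 0.992). The difference was -0.79 ± 0.40 (SE). Ccna2, with probe set 1417910_at, ranged from -2.19 over a median of -0.44 to 0.56 in ARF-deficient and from -0.06 over a median of 0.14 to 0.53 in INK4a-deficient tumors. It was the member of its role group with the smallest p, with a difference of -0.85 ± 0.37 (SE, adjusted p = 0.891 in limma). With the other Ccna2 probe set, 1417911_at, the INK4a-deficient tumors lay between -0.28 and 0.92, and the difference was -0.88 ± 0.41 (SE). Cyclin B2 (Ccnb2) had the widest distance between tumors of all members, 3.86 or 14.5-fold between tumor 14 (-2.39) and tumor 1.2 (1.47). Cks2, a small protein bound to CDKs, differed by -0.40 ± 0.30 (SE).

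The 3 probe sets of Ccnb1 did not give the same picture. With 1448205_at the tumors lay between -2.44 (tumor 14) and 0.74 (tumor 8), and with 1419943_s_at between -1.97 (tumor 14) and 0.59 (tumor 15). With 1419944_at all 13 tumors lay between -0.35 (tumor 13) and 0.17, a distance of 0.52. The first and the third correlated at r = 0.678. The difference between genotypes was -0.45 ± 0.43 with 1448205_at, -0.61 ± 0.39 with 1419943_s_at and -0.06 ± 0.09 with 1419944_at (SE). An ending in _s_at or _x_at marks probes that can detect more than 1 transcript. For Prc1, in contrast, the 2 probe sets correlated at r = 0.994.

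Foxm1 and Mybl2 encode transcription factors that switch on genes of G2 and M phase. Foxm1, with 1448834_at, ranged from -0.81 over a median of -0.56 to 0.33 in ARF-deficient and from -0.78 over a median of 0.09 to 1.02 in INK4a-deficient tumors. Here the lowest values were those of tumors 12, 14, 3 and 13, so the order of tumors differed from that of Mki67 and Cdk1. With 1448833_at the distance between the lowest and highest tumor was 0.86, against 1.83 with 1448834_at, and tumor 13 was at -0.02. They correlated at r = 0.797. Mybl2 ranged from -0.47 over a median of -0.28 to 0.00 in ARF-deficient and from -0.43 over a median of 0.30 to 0.47 in INK4a-deficient tumors. Apart from tumor 3 at -0.43, every INK4a-deficient tumor was above every ARF-deficient one. With a distance of 0.93 between its lowest and highest tumor, Mybl2 varied less than most members, and its spread within groups was small (SD 0.20 and 0.30). Its difference of -0.41 ± 0.14 (SE) had the smallest p of all members, yet the same adjusted p of 0.891 in limma. The probe sets least like the other genes were those of Foxm1 (r = 0.635 and 0.757), that of Mybl2 (r = 0.703), 1419944_at of Ccnb1 (r = 0.729) and that of Ttk (r = 0.730).

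**Figure D5:**
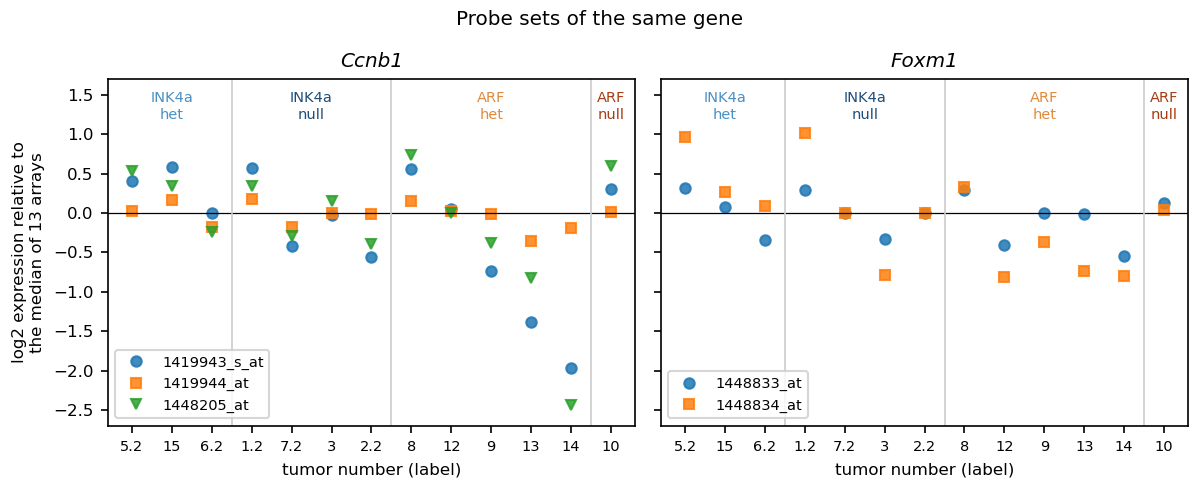
Log2 expression relative to the median of the 13 arrays in each tumor, with 1 symbol per probe set, for Ccnb1 (3 probe sets) and Foxm1 (2 probe sets). In tumor 14, Ccnb1 is at -2.44 and -1.97 with 2 of the probe sets and at -0.19 with 1419944_at.

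Among the mitotic kinases and their partners, PLK1 (Plk1) is required for spindle assembly and mitotic exit, and survivin (Birc5) belongs to the chromosomal passenger complex with Aurora B (Aurkb). Birc5 ranged from -2.35 over a median of -0.38 to 0.54 in ARF-deficient and from -0.16 over a median of 0.06 to 1.0 in INK4a-deficient tumors. Its difference of -1.01 ± 0.42 (SE) was the most negative of the 42. Plk1 ranged from -1.12 over a median of -0.29 to 1.22 in ARF-deficient and from -0.42 over a median of 0.33 to 1.21 in INK4a-deficient tumors. Its highest value was that of ARF heterozygous tumor 8, and its difference was -0.54 ± 0.38 (SE). The other kinases were Aurora A (Aurka), Aurora B, Pbk, Melk and Ttk, the checkpoint kinase also called MPS1. Their differences lay between -0.86 (Melk) and -0.39 (Ttk). In Melk tumor 13 was lower than tumor 14, at -1.95 and -1.91. Ttk was highest in ARF heterozygous tumor 12, at 0.37.

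CDC20 (Cdc20) activates the anaphase-promoting complex, the ubiquitin ligase that ends metaphase. Cdc20 ranged from -1.44 over a median of -0.44 to 0.35 in ARF-deficient and from -0.38 over a median of 0.36 to 0.88 in INK4a-deficient tumors. The 5 highest tumors included 4 INK4a-deficient ones, at 0.88, 0.81, 0.70 and 0.36. The difference was -0.80 ± 0.34 (SE). Bub1, Bub1b and Mad2l1 belong to the spindle assembly checkpoint, Ube2c is the E2 enzyme of the anaphase-promoting complex, and Cdca3 is a trigger of mitotic entry. Bub1 held the lowest value of any member, -2.61 in tumor 14. Mad2l1 differed by -0.26 ± 0.24 (SE) and was at -0.26 in tumor 13, close to its value in tumor 9 (-0.24).

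At the kinetochore and centromere, Spc25 and Ndc80 belong to the NDC80 complex, which binds microtubules, and Cenpa is the histone H3 variant of centromeres. Spc25 ranged from -1.95 over a median of -0.50 to 0.40 in ARF-deficient and from -0.62 over a median of 0.04 to 0.30 in INK4a-deficient tumors. Apart from tumor 6.2 at -0.62, the INK4a-deficient tumors lay between -0.06 and 0.30. Cenpa ranged from -2.13 over a median of -0.12 to 0.72 in ARF-deficient and from -0.48 over a median of 0.25 to 1.18 in INK4a-deficient tumors. The groups overlapped for all 3 genes. None of the 3 reached an unadjusted p of 0.05, and their differences lay between -0.69 and -0.43.

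Of the spindle genes, Kif11 encodes the motor Eg5 that pushes the spindle poles apart, and Kif22 a motor that binds chromosome arms. Kif22 ranged from -1.83 over a median of -0.62 to 0.20 in ARF-deficient and from -0.28 over a median of 0.02 to 0.83 in INK4a-deficient tumors. Here 4 of the 6 ARF-deficient tumors were below the lowest INK4a-deficient one, and the difference was -0.93 ± 0.34 (SE, adjusted p = 0.891 in limma). Kif11 ranged from -1.32 over a median of -0.31 to 0.70 in ARF-deficient and from -0.43 over a median of 0.14 to 0.57 in INK4a-deficient tumors. Its highest value was that of ARF null tumor 10. Nusap1 and Hmmr, which bind spindle microtubules, and Tacc3, which stabilizes them, had differences between -0.66 and -0.46.

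In cytokinesis, Kif20a and Prc1 act at the central spindle, Racgap1 belongs to the centralspindlin complex, and Ect2 activates RhoA at the cleavage site. Kif20a ranged from -1.37 over a median of -0.31 to 0.46 in ARF-deficient and from -0.20 over a median of 0.30 to 0.63 in INK4a-deficient tumors. Its difference was -0.72 ± 0.27 (SE). Racgap1, with 1451358_a_at, ranged from -1.42 over a median of -0.81 to 0.50 in ARF-deficient and from -0.37 over a median of 0.03 to 0.85 in INK4a-deficient tumors. Unlike most members, it was low in tumor 12 too, at -1.01. Both probe sets of Racgap1 gave nearly the same difference, -0.82 with SEs of 0.35 and 0.36. Over the 18 genes outside those chosen to be described by group, the differences of their 21 probe sets lay between -1.0 and -0.26.

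To hold zygosity constant, ARF heterozygous (n = 5) were compared with Ink4a heterozygous tumors (n = 3), in a limma fit over all 13 arrays. The median difference of the members was -1.06, against 0.04 over all probe sets, and all 42 were negative. No member passed an adjusted p of 0.05, where the smallest was 0.197 (Kif20a), and 1 of 22626 probe sets did (0.00442%). At an unadjusted p under 0.05, 25 of 42 members were lower in ARF heterozygous tumors, against 5.55% of all probe sets. Kif20a was 0.63, 0.40 and 0.30 in the Ink4a heterozygous tumors 5.2, 15 and 6.2. It was -0.02, -0.31, -0.32, -1.17 and -1.37 in the ARF heterozygous tumors 8, 12, 9, 13 and 14, so the groups did not overlap. A probe set without overlap was found for 8 genes (Ccna2, Cdc20, Birc5, Aurkb, Kif20a, Hmmr, Melk and Mybl2), against 639 probe sets of all (2.82%). In Ccna2 (1417911_at), Aurkb (1451246_s_at) and Hmmr (1450156_a_at), the groups overlapped with the other probe set of the gene. In Cdc20 the gap was narrow, with 0.36 in tumor 6.2 and 0.35 in tumor 8.

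The call in this comparison changed with array weights, where 20 of 42 members passed an adjusted p of 0.05, against 8.04% of all probe sets. Those weights ran from 0.37 (tumor 8) to 3.75 (tumor 15), so that 1 of the 3 Ink4a heterozygous tumors carried most of that group. When the beta-actin ratio entered the fit, the median was -0.71, with 2 members at an unadjusted p under 0.05 and 0 after adjustment. The unadjusted count was 7 without tumor 5.2, 12 without tumor 15, and 15 without tumor 13 and also without tumor 14. It was 30 without tumor 12 and 37 without tumor 8, where the smallest adjusted p of a member in limma was 0.0771. The 5 ARF heterozygous tumors had a mean beta-actin ratio of 0.60 and the 3 Ink4a heterozygous tumors of -0.40.

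To compare zygosity within one genotype, Ink4a null (n = 4) were set against Ink4a heterozygous tumors (n = 3). This comparison shares the Ink4a heterozygous arrays with the one above. The members had a median difference of -0.23, against 0.04 over all probe sets, and 39 of 42 were negative. None passed an adjusted p of 0.05, where 9 of 22626 probe sets did (0.0398%), and none reached an unadjusted p of 0.05, where 4.31% of all probe sets were lower. The smallest adjusted p of a member was 0.533 (Cdc20, difference -0.69 ± 0.42, SE). Cdc20 was 0.88, 0.81 and 0.36 in the Ink4a heterozygous and 0.70, 0.00, -0.33 and -0.38 in the Ink4a null tumors, which overlap through tumor 1.2. Plk1 differed by -0.72 ± 0.50, Racgap1 (1451358_a_at) by -0.51 ± 0.44, Kif11 by -0.41 ± 0.39 and Cenpa by -0.38 ± 0.59 (SE). In each of these 4 genes tumor 1.2 lay within or above the heterozygous tumors. Ube2c, named here after its values were seen, was the single member of 42 whose groups did not overlap. That is near the share over all probe sets, 2.87%, so it does not set the members apart. Its values were 1.26, 1.02 and 0.81 in the heterozygous and 0.78, -0.03, -0.13 and -0.76 in the null tumors, and its difference was -1.06 with a 95% interval from -2.50 to 0.37. When the beta-actin ratio entered the fit, the median of the members was -0.06, with 28 of 42 negative. Without tumor 5.2 it was -0.10 with 28 negative, and without tumor 2.2 it was -0.15 with 35 negative. Without tumor 6.2 it was -0.39 with all 42 negative, and without tumor 1.2 it was -0.38 with 41 negative. The mean beta-actin ratio was 0.23 in the Ink4a null and -0.40 in the Ink4a heterozygous tumors.

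The single ARF null tumor, tumor 10, allowed no test of zygosity in the ARF-deficient group. Its mitosis mean of 0.48 was above those of the 5 ARF heterozygous tumors, of which tumor 8 was the highest at 0.28. Mki67 was 0.51 in it, Top2a 0.48, Cdk1 0.66 and Birc5 0.54. For Plk1 it was at 0.52, below tumor 8 at 1.22.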

How the data were processed

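Biotin-labelled cRNA made from the RNA of each melanoma was hybridized to an Affymetrix mouse expression array. The log2 values deposited by the authors came from GeneSpringGX and are relative to the median over the arrays, which is 0 in each of the 22690 rows. No source names the base of the logarithm, and 2 was assumed. How probe signals were summarized and arrays normalized is not given in the sources used. The array named in the methods holds more probe sets than the table. A second deposited file, the authors' list of probe sets chosen by genotype on these arrays, holds their own comparison and was not used. Gene names of the 42 probe sets came with the list, and no coordinates were used for them.

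After 64 control probe sets were left out, 22626 were tested in R 4.3.3 with limma 3.58.1 (eBayes without a trend, since centred values carry no level), two-sided, with Benjamini-Hochberg adjustment and a threshold of 0.05. No expression filter could be applied. The genotypes were compared in a fit of 2 groups, and zygosities in a fit of 4 groups (genotype by zygosity), in which the lone ARF null tumor adds nothing to the spread. Precision is limited by the number of arrays. Between genotypes, the standard error had a median of 0.36 over the members and of 0.15 over all probe sets. The mitosis mean averages the probe sets of a gene first. Values by group are given for Mki67, Top2a, Ccnb1, Cdk1, Plk1, Birc5 and Foxm1 and, per role, for the gene of smallest unadjusted p between genotypes and between Ink4a null and heterozygous tumors (16 genes in all). The members and lists were chosen with earlier results of these data known. Other pathway genes and cell type markers were not analysed here, since their probe sets have no gene names. Alternatives covered the variance model, normalization, array weights, RNA quality, zygosity, the samples in the fit, label endings, averaging of probe sets, the Mann-Whitney test and leaving out each array.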

Additional observations from a re-analysis of the deposited data

Results flagged for a closer look

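Spc25, a subunit of the NDC80 complex, was flagged for a sample far from the others of its group. In INK4a-deficient tumor 6.2 it was at -0.62 on the log2 scale relative to the median of the 13 arrays, and the nearest INK4a-deficient tumor was tumor 3 at -0.06. It was the single flag among 72 groups of values examined, where chance flags about 1 in 20 groups, or 3.6 of them. Ndc80, of the same complex, was at -0.39 in tumor 6.2 and at -0.09 in the next INK4a-deficient tumor.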

How the results depend on the processing

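No member passed an adjusted p of 0.05 under any of the 24 alternatives run between genotypes, any of the 21 between Ink4a null and heterozygous tumors, or 20 of the 21 between ARF heterozygous and Ink4a heterozygous tumors. The exception was array weights, with 20 members. With each array left out in turn, the median differences ran from -0.89 to -0.43, from -0.39 to -0.10 and from -1.31 to -0.79 in these 3 comparisons. All members stayed negative between genotypes in 22 of 24 fits. Otherwise, 1 member was positive with the beta-actin covariate and 1 with the tumors whose label number has no decimal ending. Every decimal ending belongs to an INK4a-deficient tumor, so that last fit kept only tumors 15 and 3 of the INK4a-deficient group. In it the median was -0.66 and 0 members had an unadjusted p under 0.05 in limma. That count was 3 with quantile normalization and 2 with zygosity as a covariate. Between Ink4a null and heterozygous tumors it was 4 with the INK4a-deficient arrays alone and 6 with array weights. Quantile normalization moved the mitosis mean of tumor 14 to -2.63, as its values had the narrowest spread of all arrays (SD 0.31) and the method gives every array the same distribution. No paired analysis was possible because the labels give the tumors numbers that the groups do not share. All fold changes are relative to the other tumors, and no signal over background could be read from centred values.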
